A study of Arabidopsis thaliana with 9 samples.

Results

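A group of 5 neighbouring genes on chromosome 4 of Arabidopsis thaliana, PUB8 (AT4G21350), RK3 (AT4G21380), B120 (AT4G21390), CRK28 (AT4G21400) and CRK29 (AT4G21410), were followed across the H3K4me3 peak lists of the series. They are 5 of 27432 protein-coding genes and lie next to JMJ28 (AT4G21430); all coordinates are of the build TAIR10. Of the 5, 4 encode receptor-like kinases and PUB8 encodes a ubiquitin ligase. The group was selected on the H3K4me3 peaks of jmj28-2 and Col-0, since peaks over some of these genes were absent in jmj28-2, so every value of jmj28-2 against Col-0 is given for them as a description, with no test. ChIP-seq, the sequencing of chromatin pulled down with an antibody, was used to map H3K4me3 in 12-day-old seedlings of jmj28-2, atx1/2 and wild-type Col-0, with 2 H3K4me3 libraries each. Both mutants are in the Col-0 ecotype, and all seedlings grew at 23 °C in 16 h of light and 8 h of dark on MS medium with 1% sucrose. The labels give the alleles by name only, and do not say what lesion jmj28-2 carries or which alleles of ATX1 and ATX2 make up atx1/2. The 3 H3 samples, 1 per genotype, were not analysed here.

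H3K4me3 is a histone mark found around the start of transcribed genes, and a called peak marks where it is enriched over a control. JMJ28 belongs to the JmjC-domain histone demethylase family, and ATX1 and ATX2 are Trithorax-type H3K4 methyltransferases. Receptor-like kinases sit in the plasma membrane and relay signals through a kinase domain inside the cell. RK3, also called ARK3, and B120 have an S-domain outside the cell, like the S-locus receptor kinase that recognises self pollen in outcrossing relatives. CRK28 and CRK29 are cysteine-rich receptor-like kinases, a family with many members that respond to pathogens, and overexpression of CRK28 raises resistance to bacteria. PUB8 is a U-box ubiquitin ligase with ARM repeats, a family with members that S-domain kinases bind and phosphorylate. PUB8 and RK3 flank the self-incompatibility locus, which in Col-0 holds pseudogenes.

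The 6 lists held between 14291 and 14493 peaks on the 5 nuclear chromosomes, with median widths between 1801 and 1858 bp. Positions and scores are listed without read counts, so depth is unknown and counting error cannot be stated. No list goes below a score of 20.01, so a gene without a peak may still carry H3K4me3 below that level. In whole seedlings, fewer cells with the mark and less of the mark per cell cannot be told apart. The state of the DNA between PUB8 and JMJ28 in jmj28-2 was not tested, since the lists hold peaks and no reads. Of 5 photosynthesis genes of leaves, 4 had a peak on the gene body in all 6 libraries. None of 5 seed storage genes had one, and 2 of 4 pollen genes did.

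Across the 5 genes, jmj28-2 had a peak on PUB8 alone, while atx1/2 and Col-0 had peaks on PUB8, RK3, B120 and CRK29. CRK28 had no peak in any library. A gene was counted as having a peak when at least 200 bp of its body lay under one. In these terms 1 of the 5 genes carried a peak in each jmj28-2 library, 4 in each atx1/2 library and 4 in each Col-0 library. Among all protein-coding genes the counts were 16838 and 16876 in jmj28-2, 17082 and 17069 in atx1/2, and 17031 and 17045 in Col-0.

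**Figure D1:**
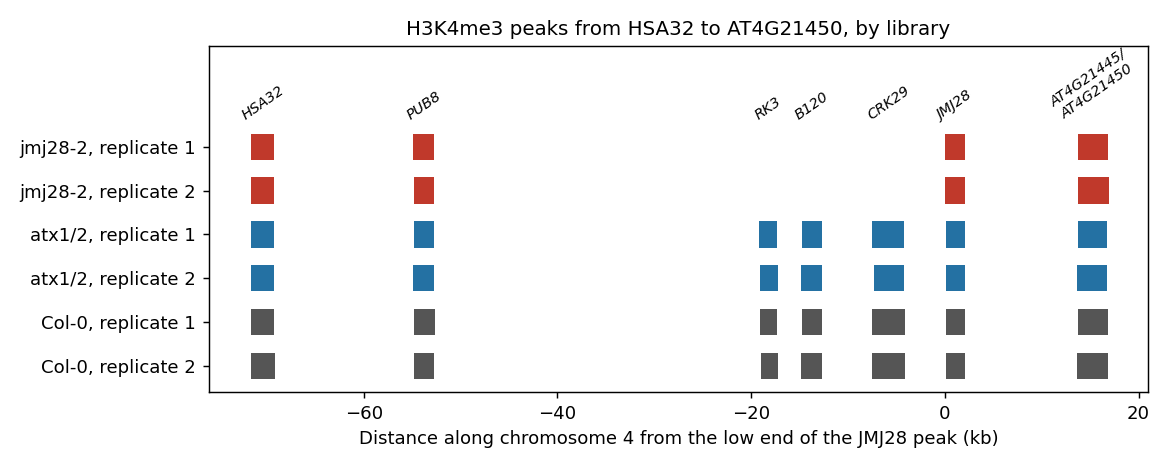
H3K4me3 peaks as bars in each of the 6 libraries, with distance along chromosome 4 in kb from the low-coordinate end of the JMJ28 peak. The jmj28-2 libraries have no bar between PUB8 and JMJ28, where the atx1/2 and Col-0 libraries each have 3.

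PUB8, the U-box ligase gene at the low-coordinate end of the group, kept its peak in every library. The peak (region chr4:11355782-11358017) measured 2162 and 2112 bp in the jmj28-2 libraries, 2042 and 2163 bp in atx1/2, and 2118 and 2102 bp in Col-0. The 3 genotypes overlapped in length. The whole annotated PUB8 body of 1125 bp lay under the peak in all 6 libraries, and the peak ran 677 to 750 bp past its high-coordinate end. By score it was among the stronger peaks of each list. Its score percentile, the percentage of peaks of the same list with a score at or below it, was 74.0 and 68.6 in jmj28-2, 84.5 and 77.9 in atx1/2, and 87.9 and 86.6 in Col-0. The score is the authors' value for each peak and ranks peaks within 1 list only.

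The interval from PUB8 to RK3, which holds the pseudogenes of the self-incompatibility locus, was free of peaks in all 6 libraries. Its length between peaks was 33.574 and 33.685 kb in atx1/2 and 33.644 and 33.734 kb in Col-0. The pseudogenes AT4G21360, AT4G21363 and PSEUDOSRKA, the pseudogene of the S-locus receptor kinase, had 0 bp of peak in each library, as did the microRNA gene MIR867 and the protein-coding gene AT4G21366. Peak-free intervals of that size are uncommon in these lists. The median distance between neighbouring peaks was 3.195 to 3.222 kb over the 6 libraries, and 1.54% and 1.58% of the intervals in atx1/2 and 1.57% and 1.61% in Col-0 were at least as long as this one.

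RK3, the S-domain kinase gene next to the pseudogenes, had no peak in jmj28-2. In the region chr4:11391522-11393462 it had 0 and 0 bp in the jmj28-2 libraries, 1901 and 1818 bp in atx1/2, and 1758 and 1748 bp in Col-0. Both jmj28-2 libraries were at 0 and both atx1/2 libraries lay above both Col-0 libraries. The peak covered between 34.4% and 38.8% of the gene at its high-coordinate end and ran 193 to 236 bp past it. It was a weak peak, with score percentiles of 22.0 and 21.8 in atx1/2 and 11.6 and 11.9 in Col-0.

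B120, the other S-domain kinase gene, showed the same absence in jmj28-2. Its region, chr4:11395895-11398031, had 0 and 0 bp in the jmj28-2 libraries, 2076 and 2129 bp in atx1/2, and 2072 and 2134 bp in Col-0. The atx1/2 lengths lay within the Col-0 range. The peak covered 52.2% to 53.4% of the gene, again at the high-coordinate end, and its low edge varied by 39 bp and its high edge by 31 bp over the 4 libraries that had it. Score percentiles were 19.7 and 17.1 in atx1/2 and 20.5 and 37.2 in Col-0.

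CRK28 and CRK29, the cysteine-rich kinase genes, differed from each other in Col-0. CRK28 had 0 bp of peak in all 6 libraries, so its mark could not be compared between genotypes. It lay between the B120 and CRK29 peaks, which were 5.175 and 5.394 kb apart in atx1/2 and 5.206 and 5.181 kb apart in Col-0. CRK29 had the longest peak of the 5 genes (region chr4:11403176-11406566), with 0 and 0 bp in the jmj28-2 libraries, 3322 and 3093 bp in atx1/2, and 3355 and 3343 bp in Col-0. Both atx1/2 lengths lay below both Col-0 lengths, and the atx1/2 libraries lay farther from each other than the means of the 2 genotypes did. Unlike those of RK3 and B120, this peak was strong, with score percentiles of 88.4 and 86.3 in atx1/2 and 81.7 and 77.5 in Col-0. It covered 51.6% to 58.4% of the CRK29 body and ran 1262 to 1331 bp past the high-coordinate end. There it lay over the pseudogene AT4G21420, with 686 and 699 bp in atx1/2 and 755 and 744 bp in Col-0, and none in jmj28-2. The peak is therefore not of CRK29 alone.

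**Figure D2:**
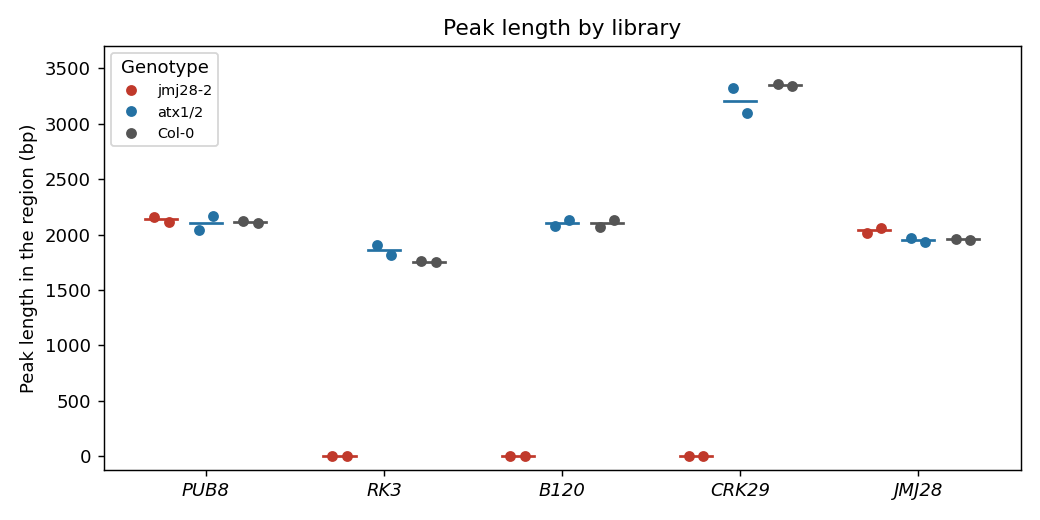
Length of peak in bp in the regions of PUB8, RK3, B120, CRK29 and JMJ28, with a point per library and a line at the mean of the 2 libraries of jmj28-2, atx1/2 and Col-0. RK3, B120 and CRK29 are at 0 in both jmj28-2 libraries, and PUB8 and JMJ28 are not.

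The 3 absent peaks spanned 15045 bp (chr4:11391522-11406566). Together they held 0 and 0 bp of peak in jmj28-2, 7299 and 7040 bp in atx1/2, and 7185 and 7225 bp in Col-0. With them absent, the peak-free interval that starts at PUB8 reached as far as JMJ28 in jmj28-2 and measured 52.761 and 52.750 kb there. Of all intervals between peaks, 0.837% and 0.846% were at least as long in the 2 jmj28-2 libraries.

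Both edges of this interval were marked in every genotype. The JMJ28 peak (region chr4:11410712-11412788) had 2012 and 2063 bp in the jmj28-2 libraries, 1967 and 1932 bp in atx1/2, and 1962 and 1952 bp in Col-0. Its low edge, which faces CRK29, was at 11410726 and 11410712 in jmj28-2, at 11410798 and 11410857 in atx1/2, and at 11410814 and 11410813 in Col-0. The jmj28-2 peaks thus began closer to CRK29 than those of the other 4 libraries. HSA32, a heat-stress gene and the first gene with a peak beyond PUB8, had 2384 and 2340 bp in the jmj28-2 libraries, 2387 and 2376 bp in atx1/2, and 2356 and 2505 bp in Col-0.

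Farther out no other Col-0 peak was absent in jmj28-2. Within 100 kb on the low-coordinate side, PUB8 included, there were 13 regions, of which 12 had a peak in all 6 libraries. On the high-coordinate side, JMJ28 included, there were 19, and 17 had a peak in all 6. Peak length summed to 31.6 and 31.3 kb in jmj28-2, 31.4 and 29.8 kb in atx1/2, and 30.0 and 30.5 kb in Col-0 on the low side. On the high side it was 31.1 and 33.2 kb in jmj28-2, 32.6 and 32.1 kb in atx1/2, and 31.9 and 31.6 kb in Col-0.

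Of the regions of the 5 genes, 3 of 4 were marked in each Col-0 library but in no jmj28-2 library. The same held for 141 of 13865 regions marked in Col-0 across the genome, or 1.02%, and this contrast chose the genes, so nothing is read from the comparison. With 1 library left out the genome-wide count was 228 without jmj28-2 replicate 1, 231 without Col-0 replicate 1 and 223 without Col-0 replicate 2. The 3 regions, without a peak in either jmj28-2 library, could not change in these cases. In atx1/2 none of the 4 regions lacked its peak, against 111 of 13865, or 0.801%. When only peaks with a score of 100 or more were kept, the Col-0 peaks of the 3 regions remained, and jmj28-2 could gain none.

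Most of the 141 regions held weak peaks, and CRK29 did not. The lower of the 2 Col-0 score percentiles was 77.5 for CRK29, 20.5 for B120 and 11.6 for RK3, against a median of 2.23 over the 141 regions. By this measure CRK29 ranked 1, B120 ranked 3 and RK3 ranked 5 of 141, and the highest value outside the group was 41.5, at AT1G29740. Of 6549 regions with a Col-0 percentile over 50, CRK29 was the 1 that had no peak in jmj28-2. Of 672 regions with a percentile of 5 or less, 112 had none. In length CRK29 was at rank 3, B120 at 20 and RK3 at 40 of 141. These ranks are among regions absent in jmj28-2, the contrast that chose the genes, and are a description only.

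**Figure D3:**
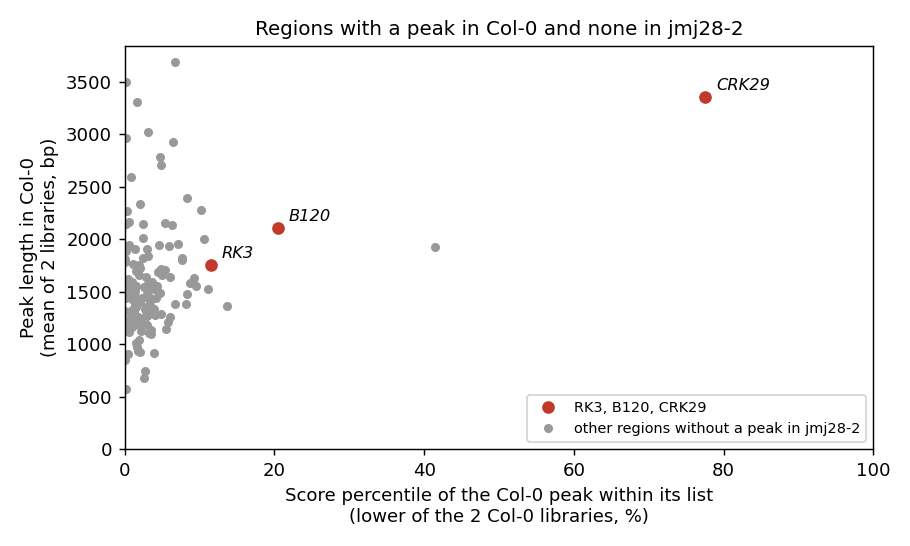
Each point is 1 of the 141 regions marked in each Col-0 library and in no jmj28-2 library, with the lower of its 2 Col-0 score percentiles (%) against its mean peak length in Col-0 (bp). CRK29 lies at 77.5%, far from the other regions, while B120 and RK3 lie at 20.5% and 11.6%.

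The group also held the longest run of such regions, a description by the contrast that chose the genes, from which nothing is read. Between consecutive jmj28-2 peaks, 132 intervals held 1 region marked in each Col-0 library, 3 held 2 and 1 held 3, and the last is the interval from PUB8 to JMJ28. In atx1/2 the same count gave 104 intervals with 1 region, 3 with 2 and none with 3. One of the jmj28-2 intervals with 2 regions also lay over cysteine-rich kinase genes, CRK21 and CRK22 (chr4:12172769-12191593).

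The comparison of atx1/2 with Col-0 did not choose the genes, but its Col-0 libraries were among those that did. It was tested for each of the genes with a peak, and CRK28 had none. None of the regions of PUB8, RK3, B120, CRK29 and JMJ28 passed the limma test of length, and 0 of these 5 had an unadjusted p under 0.05; the smallest was 0.0527, for RK3. Lengths were compared as log2(bp + 200) with limma over 14394 regions, and changes below are on that scale, with Benjamini-Hochberg adjusted p and a threshold of 0.05. At that threshold 0.875% of all regions were shorter in atx1/2 and 0.98% were longer, 126 and 141 regions. These became 156 and 96 with the same number of peaks from each list, and 69 and 50 with trend and robust variances. The longer regions numbered 62 without atx1/2 replicate 1, 68 without atx1/2 replicate 2 and 224 without Col-0 replicate 1.

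The RK3 peak averaged 1859.5 ± 58.7 bp in atx1/2 and 1753 ± 7.07 bp in Col-0 (SD, n = 2 each). It was longer in 4 of 4 pairs of libraries, by 0.08 ± 0.029 (SE; 95% interval -0.0014 to 0.15), which did not pass the test (limma adjusted p = 0.613). CRK29 averaged 3207.5 ± 162 bp in atx1/2 and 3349 ± 8.49 bp in Col-0, a change of -0.06 ± 0.039 (interval -0.16 to 0.05, limma adjusted p = 0.771), with atx1/2 longer in 0 of 4 pairs. B120 averaged 2102.5 ± 37.5 bp in atx1/2 and 2103 ± 43.8 bp in Col-0, and its interval ran from -0.07 to 0.07 (limma adjusted p = 1). PUB8 averaged 2102.5 ± 85.6 bp in atx1/2 and 2110 ± 11.3 bp in Col-0, with an interval from -0.10 to 0.09 (limma adjusted p = 0.991). For JMJ28 the interval ran from -0.07 to 0.06 (limma adjusted p = 0.985). The median change over all regions tested was -0.01. The fit takes its spread from all 6 libraries. At RK3, B120 and CRK29 the jmj28-2 libraries, at 0 and 0 bp, added none, so SEs, intervals and p-values there may be too small. With trend and robust variances the SE was 0.22 for RK3, 0.17 for B120 and 0.052 for CRK29. Same or different read density inside a peak of the same length cannot be seen in these lists.

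**Figure D4:**
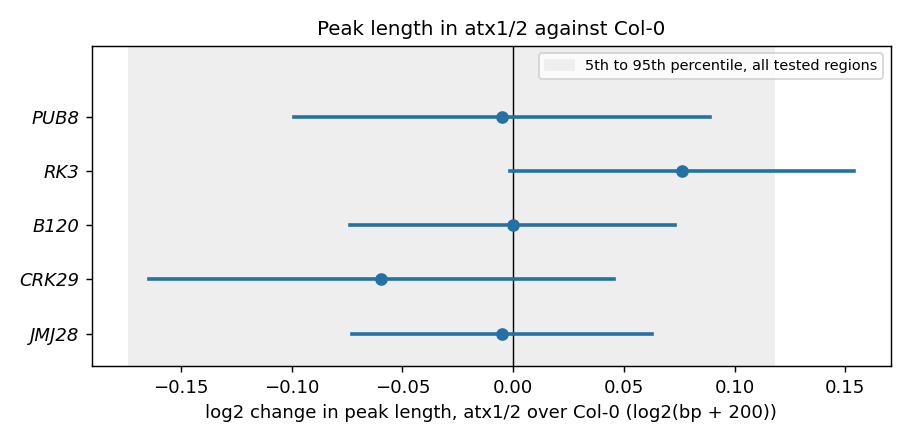
Change in peak length in atx1/2 over Col-0, in log2(bp + 200), with points for the limma estimates and lines for their 95% intervals. The shaded band holds the 5th to 95th percentile of all 14394 regions, and all 5 estimates lie inside it. For RK3, B120 and CRK29 the lines may be too short, since jmj28-2, without a peak there, adds no spread to the fit.

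Within gene bodies RK3, B120 and CRK29 again did not pass the test, and the sign of the CRK29 change depended on 1 library. Over the CRK29 body the peak held 2060 and 1818 bp in atx1/2 and 2024 and 2023 bp in Col-0, a change of -0.06 ± 0.062 (SE; limma adjusted p = 0.933 over 17960 genes). Without atx1/2 replicate 1 the change was -0.14, and without atx1/2 replicate 2 it was 0.02. Each of these fits leaves 1 atx1/2 library, so the spread comes from jmj28-2, at 0 and 0 bp, and from the 2 close Col-0 values. A test on that spread cannot decide whether CRK29 changed. The change over the RK3 body was 0.09 ± 0.036 (limma adjusted p = 0.638) and that over the B120 body 0.0043 ± 0.013 (limma adjusted p = 1). In the fits with all 6 libraries too, jmj28-2 at 0 and 0 bp added no spread for RK3, B120 and CRK29, so their SEs may be too small. The PUB8 body was wholly covered in every library, so its length could not differ, and CRK28, with no peak, could not be tested.

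Some 60 regions of the genome shared the pattern of the 3 kinase genes, a peak in all atx1/2 and Col-0 libraries and none in jmj28-2. They were ranked by the lowest of the 4 score percentiles. CRK29, B120 and RK3, chosen for their absence in jmj28-2, took the first places with 77.5, 17.1 and 11.6, which is a description only. They were followed by MYB48, a MYB transcription factor gene, at 9.30, PPI2, which encodes a proton pump interactor, at 8.91, AT3G21670 at 6.71, ZF14 at 6.02 and AT5G26731 at 5.53. MYB48 had 1590 and 1665 bp of peak in atx1/2 and 1631 and 1628 bp in Col-0. PPI2 had 1557 and 1422 bp in atx1/2 and 1496 and 1549 bp in Col-0.

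The relatives of the 5 genes were compared by gene body. The lists of relatives were drawn up with earlier results of these data known. Outside the group, 16 cysteine-rich kinase genes were marked in each Col-0 library, and 3 had none in jmj28-2, against 1.02% of all such genes. They were CRK21, CRK22 and CRK24. CRK24 fell under the 200 bp needed on the gene body, with 111 and 107 bp in the jmj28-2 libraries and 388 and 552 bp in Col-0, while the peak that reaches it was present in all 6 libraries. Of 20 family members tested outside the group, 3 were shorter in jmj28-2 and 0 longer, against 0.857% and 0.418% of all genes (limma, adjusted p threshold 0.05). CRK21 was at 0 in both jmj28-2 libraries, against 2014 and 2151 bp in Col-0 (limma adjusted p = 9.05e-05). CRK22 was likewise at 0 in jmj28-2, against 890 and 940 bp in Col-0 (limma adjusted p = 8.33e-05). Both had their peak in atx1/2, with 2039 and 1975 bp for CRK21 and 1002 and 993 bp for CRK22. Both were weak peaks, with lower Col-0 score percentiles of 2.03 for CRK21 and 3.88 for CRK22, in the range of 5 or less where 16.7% of all regions had no peak in jmj28-2. With a score of 100 or more required, neither had a peak in enough libraries to be tested. The p-values of CRK21 and CRK22 take 0 bp as an exact length without spread in jmj28-2, though no list goes below a score of 20.01. The size of these changes also depends on the 200 bp added before log2. CRK26 was shorter in both mutants, which share the Col-0 libraries, with 1196 and 1247 bp in the jmj28-2 libraries, 1164 and 1204 bp in atx1/2, and 2503 and 2488 bp in Col-0. Its change was -0.92 in jmj28-2 (limma adjusted p = 0.00155) and -0.96 in atx1/2 (limma adjusted p = 0.00113). CRK26 lay under 2 peaks in Col-0. The weaker one (chr4:18121887-18123498) had 0 bp in all jmj28-2 and atx1/2 libraries and 1521 and 1524 bp in Col-0, with Col-0 scores of 37.27 and 39.98, and the stronger one was present in all 6 libraries. Peaks with a score of 100 or more leave out the weaker one, and both calls then ended, with changes of 0.0054 in jmj28-2 and -0.03 in atx1/2.

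In atx1/2 every one of the 17 cysteine-rich kinase genes marked in Col-0, CRK29 included, still had a peak on its body, where 0.841% of all genes marked in Col-0 had none. Counted by region, 1 of 17 over these genes, the weaker CRK26 peak, was absent in atx1/2. CRK26 was also the 1 of 21 tested that was shorter, against 0.791% of all genes. None of the 21 was longer, against 0.735%. Their median change in atx1/2 was -0.03, against -1.66e-05 over all genes tested. Of 41 family genes in the gene table, 20 had no peak in any library, CRK28 among them.

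For the S-domain kinases, 20 of 37 were marked in each Col-0 library, and the 2 without a peak in jmj28-2 were RK3 and B120. Thus 0 of the 18 outside the group lacked one in both jmj28-2 libraries, against 1.02% of all genes marked in Col-0. AT4G11900, with 1548 and 0 bp in jmj28-2, and AT1G61460, with 226 and 0 bp, lacked it in replicate 2 alone and are not in this count. In limma 0 of 23 tested genes passed in atx1/2, against 0.791% shorter and 0.735% longer over all genes, and 2 had an unadjusted p under 0.05. In jmj28-2 0 of the 21 outside the group passed, against 0.857% shorter and 0.418% longer over all genes, and 0 had an unadjusted p under 0.05. The related gene AT1G61390 was at 0 in jmj28-2 and had 732 and 967 bp of peak in atx1/2, against 0 and 144 bp in Col-0 (limma adjusted p = 0.199 for atx1/2 against Col-0). Of the U-box ligases with ARM repeats, 16 of 18 had a peak in all 6 libraries. In limma 0 of 17 tested passed in atx1/2, where 1 had an unadjusted p under 0.05. In jmj28-2 0 of the 16 besides PUB8 passed, and 2 had an unadjusted p under 0.05. The shares over all genes are those given for the S-domain kinases. With shares that small, a count of 0 in lists of this size says little about either family.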

How the data were processed

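For each H3K4me3 library the authors deposited a list of peaks with positions in bp and a score. The submitters' processing notes name the build TAIR10 and the tools deepTools 2.4.1, ChIPseeker, MACS 1.4 and Bowtie2 2.2.8, with no roles. The score is the authors' deposited value; how it was computed is not given in the sources used here. Positions were counted from 1, chloroplast peaks were left out, and overlapping peaks of the 6 lists were joined into 14670 regions. Per library, peak bp were summed over each region and gene body. Gene names and bodies came from a RefSeq table of TAIR10.1, which gives no strand. Its coordinates are not printed. With no shift, 83.8% of Col-0 peak bp lay on protein-coding genes, against 67.0% and 67.2% at shifts of -4000 and 4000 bp. Regions or genes with peak bp in at least 2 libraries were tested with limma 3.58.1 (R 4.3.3), all 6 libraries in 1 fit, after log2(bp + 200), which understates changes of short regions. The procedure was tested on simulated data made from regions and genes with a peak in all 6 libraries. RK3, B120 and CRK29 were not among these, and no result here rests on it. Tables were made with Python 3.11.15 and pandas 2.3.3. Separate cultures are not stated for the 2 libraries of a genotype, so p-values cover the spread of these libraries alone, and that spread may be technical. The 5 genes and all lists were chosen with earlier results of these data known. Named besides them were their neighbours from AT4G21320 to AT4G21450, up to 5 regions with the same pattern, and up to 4 relatives per list and direction. AT1G29740, AT1G61390, AT4G11900 and AT1G61460 were named after their values were seen.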

Additional observations from a re-analysis of the deposited data

How the results depend on the processing

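RK3, B120 and CRK29 had no peak in jmj28-2, and none of the 4 regions lost its peak in atx1/2, under all 7 alternatives tried for each. Neither result could have changed, since no alternative adds a peak and the listed peaks of these regions all scored above 100. The alternatives are therefore no check on them. By region, the atx1/2 changes of PUB8, RK3, B120, CRK29 and JMJ28 stayed on the same side of the threshold in every alternative. By gene body they did so too, save CRK29 without atx1/2 replicate 1, a fit that leaves 1 atx1/2 library. The precision by region did depend on the variance model. With trend and robust variances the SE rose from 0.029 to 0.22 for RK3 and from 0.027 to 0.17 for B120. Genome-wide counts in atx1/2 moved with trend and robust variances, where 119 regions were called against 267, 69 shorter and 50 longer. With 1 library left out, longer regions numbered 62 to 224 and longer gene bodies 61 to 200. Peaks lost then numbered 207 to 231 in jmj28-2 and 160 to 183 in atx1/2, because fewer libraries have to meet the condition. With a score of 100 or more, both CRK26 calls ended, with changes of 0.0054 in jmj28-2 and -0.03 in atx1/2. That minimum leaves out its peak with Col-0 scores of 37.27 and 39.98, the one absent in both mutants. CRK21 and CRK22 could not be tested at that minimum. The replicate numbers did not pair the libraries (correlation of deviations 0.020 between atx1/2 and Col-0). With a replicate block 251 regions (112 shorter, 139 longer) and 226 gene bodies were called in atx1/2, and no call on the 5 genes changed. The number of reads behind a peak is unknown, which limits every value to the presence and length of peaks.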

Other observations

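Within 100 kb of the group, 3 further regions, chosen after their values were seen, lacked a peak in some libraries. AAT1, an amino acid transporter gene (chr4:11269836-11271114), had 1202 and 1279 bp of peak in jmj28-2, 1223 and 0 bp in atx1/2, and none in Col-0. VAL3, a B3-domain gene (chr4:11462730-11463852), had 0 and 1123 bp in jmj28-2 and none in atx1/2 or Col-0. AT4G21620 (chr4:11491089-11492289) had 1193 and 1170 bp in atx1/2 and none in jmj28-2 or Col-0.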
